A study of Camponotus floridanus with 64 samples.

Results

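The co-receptors that insects use to build their chemosensory receptors were followed in brains of the carpenter ant Camponotus floridanus. They are the odorant receptor co-receptor ORco (Cflo_ORco in the tables) and the conserved ionotropic receptors IR25a, IR8a, IR76b, IR93a and IR68a (Cflo_IR25a, Cflo_IR8a, Cflo_IR76b, Cflo_IR93a and Cflo_IR68a). They were chosen by name, not by their values, and are 6 of the 18130 identifiers in each table.

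Insect odorant receptors work as complexes of a tuning receptor, which binds the odour, and ORco, which is needed to carry the complex to the sensory membrane and to form the ion channel. Ionotropic receptors are relatives of the ionotropic glutamate receptors, and there too a tuning subunit is joined by a co-receptor: IR25a and IR8a are the most conserved of these, and IR76b is a further one. In Drosophila, IR8a serves acid sensing, IR76b serves amine sensing and taste, IR93a works with IR25a in humidity and temperature sensing, and IR68a is a receptor for moist air, closer to a tuning subunit than to a shared co-receptor. Most neurons that use these proteins have their cell bodies in the antennae and mouthparts, and send axons to the brain.

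RNA with poly(A) tails was sequenced from the central brain, per the labels. The scouts, which are minor workers that forage, came from 21 single brains after feeding on sugar water for 45 days: 5 brains with 0.5% DMSO, the solvent, 10 with 50 µM TSA in DMSO, and 6 with 50 µM TSA plus C646 in DMSO. TSA, or trichostatin A, is an inhibitor of histone deacetylases, and C646 blocks the histone acetyltransferases p300 and CBP. C646 was given at 50 µM to 4 brains and at 100 µM to 2, libraries 14 and 15. Each scout library used 15% of its brain and 1 round of linear amplification (LinDA). The other table held callow workers of colony SB2 on day 1 of adult life, 5 majors, the large worker form, and 5 minors, untreated and with no amplification named in their descriptions. The labels do not name a strain beyond the colony, and for day 1 they do not say that every library was a separate animal, so p-values there measure the spread between libraries. A day 1 brain below stands for 1 library.

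Age and colony differed with the scout arms. The labelled age was 78 days in all 5 DMSO brains, 68 to 73 days in TSA brains and 57 to 66 days in TSA+C646 brains. Isolation at 25 to 30 days plus 45 days of treatment comes to 70 to 75 days, and 9 of 21 scouts were labelled younger and 5 older than that. DMSO and TSA brains shared only colony SB2, TSA and TSA+C646 brains shared SB1 and SB4, and DMSO and TSA+C646 brains shared only SB6, with 1 brain each. Age and treatment cannot be told apart in these libraries.

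Deposited values were taken as log2 values, and each library followed 1 shared distribution plus a constant. The lowest identifiers of a library, which shared 1 value before normalization, carry low values that climb with their line in the table, so an identifier is called detected where it lay above them. The level of a gene below is its log2 value with the library's constant removed and undetected genes at 0, and the differences tested are those of the values as deposited. A 0 can mean that the transcript was absent or that its estimate failed. Whether the values are per length is not stated, so levels are compared between libraries and not between genes, and no level is compared between the tables, which were normalized separately. Depth is unknown, since the tables hold no counts.

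Libraries differed in how much they detected, which bears on genes this low. Scouts detected 2791 to 12328 identifiers, the lowest being TSA+C646 library 15 and the highest TSA library 10. Day 1 minors detected 10462 to 11259. Majors 1 to 3 detected 5459, 6298 and 6528, against 10216 and 11768 in majors 4 and 5. The constants reached 0.840 in TSA library 10, 0.907 in TSA+C646 library 16 and -0.330 in library 15. No library was a copy of another, the highest r between any 2 being 0.808 in scouts and 0.878 on day 1. None of 21 marker symbols for neurons, glia, photoreceptors and other cells matched an identifier, so the brain label could not be checked against its markers.

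All 6 co-receptors were detected in at least 1 library of each table, but no co-receptor was detected in all 31 brains. The ionotropic receptors IR25a, IR8a and IR93a stood apart from the other co-receptors by how often they were found. IR25a was detected in 10 of 10 day 1 brains and 17 of 21 scouts, and IR8a and IR93a were each detected in 9 of 10 and 17 of 21. IR76b followed with 2 of 10 and 11 of 21, ORco with 1 of 10 and 11 of 21, and IR68a with 1 of 10 and 7 of 21. In the bulk RNA of a brain, fewer cells with a transcript and less of it per cell cannot be told apart.

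The tables name 501 chemosensory receptors in all: ORco, 406 other odorant receptors, 63 gustatory receptors and 31 ionotropic receptors, 5 of which are co-receptors. On day 1 IR25a was the only one of the 501 found in all 10 brains, and after IR8a and IR93a no other was found in 9. For comparison, 17.4% of all 18130 identifiers were detected in all 10 day 1 brains. Each of the 26 other ionotropic receptors was detected in at most 6 of 10 day 1 brains, IR75f.1 and IR314 reaching that number. In scouts the order was different. Odorant receptor OR61, gustatory receptor GR48 and ionotropic receptor IR311 were found in 19 of 21 scouts, more than any co-receptor. On day 1 OR61 was found in 1 brain, GR48 in 2 and IR311 in 0. Of all 18130 identifiers, 29.9% were detected in more scouts than IR25a, IR8a and IR93a were. These numbers are descriptions, with no test.

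**Figure D1:**
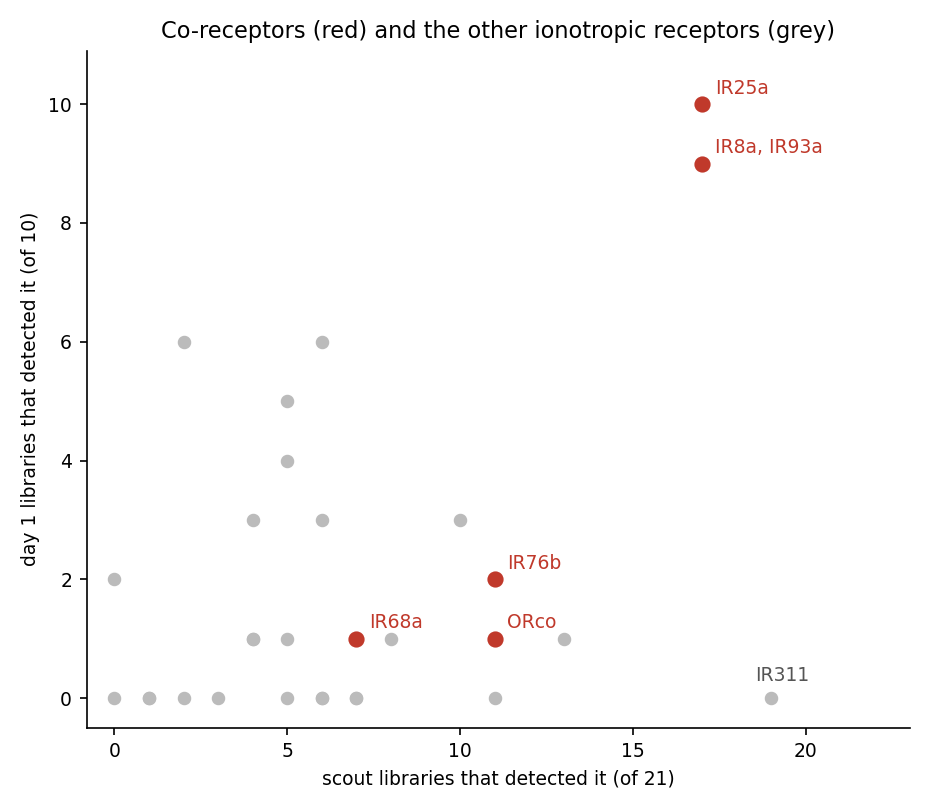
Number of scout libraries (of 21, horizontal) and of day 1 libraries (of 10, vertical) in which each gene was detected, for the 6 co-receptors (red) and the 26 other ionotropic receptors (grey, some points lying on each other). IR25a, IR8a and IR93a sit alone at the upper right, and IR311 reaches 19 scouts with 0 day 1 brains.

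IR25a, the broad co-receptor of the ionotropic family, was found in every day 1 brain. Its level in minors 1 to 5 was 1.28, 1.22, 1.29, 1.65 and 1.20, a mean of 1.33 ± 0.18 (SD, n = 5). In majors 1 to 5 it was 1.58, 0.86, 1.10, 1.36 and 0.76, a mean of 1.13 ± 0.34 (SD, n = 5). The castes overlapped, and minor 4 lay above every other brain. The difference of major minus minor was -0.19 on the log2 scale (SE 0.19, 95% interval -0.62 to 0.24; limma, Benjamini-Hochberg adjusted p = 0.637). It ran from -0.30 without major 1 to -0.10 without major 5, and was -0.12 without major 2 and -0.11 without minor 4.

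IR25a was still found in the majors that missed many genes. A set of 783 identifiers was detected in all 5 minors, with a mean level there within 0.2 of that of IR25a. Of these, major 1 missed 41.8%, major 2 missed 29.8% and major 3 missed 23.8%. Only 45.8% of these 783 were detected in all 5 majors, IR25a among them. Its SD between minors was 0.18, beside a median SD of 0.23 over the same identifiers. For IR93a and IR8a the SDs were 0.15 and 0.17, beside medians of 0.19 and 0.13 over sets chosen likewise near their own levels. IR8a varied more than most of its set. Major 2, which did not detect IR93a, missed 36.2% of the IR93a set. Major 1, which did not detect IR8a, missed 58.3% of the IR8a set. Of these 2 sets, 38.5% and 25.5% were detected in all 5 majors.

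IR93a, a partner of IR25a in Drosophila, was found in all 5 minors at 0.89, 1.02, 1.16, 0.97 and 0.77. In majors 1, 3, 4 and 5 its level was 1.34, 0.80, 0.94 and 0.49, and major 2 did not detect it. Major 1 was above and major 5 below all the minors, so the castes overlapped. The difference was -0.16 (SE 0.20, 95% interval -0.61 to 0.28; limma, adjusted p = 0.582). IR93a stands near the end of the table, where undetected genes carry the highest values, so major 2 carried a deposited 0.39 although it did not detect the gene. With undetected genes at 0 the difference was -0.25, and on deposited values it ran from -0.30 without major 1 to -0.06 without major 2, with -0.10 without major 5.

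IR8a, which in Drosophila joins receptors for acids, was likewise found in all 5 minors, at 0.35, 0.55, 0.78, 0.40 and 0.50. In majors 2 to 5 its level was 0.79, 1.16, 0.37 and 0.37, and major 1 did not detect it. Majors were both the lowest and the highest of the 10 brains. The difference was 0.03 (SE 0.22, 95% interval -0.45 to 0.51; limma, adjusted p = 0.936), and it was -0.13 without majors 1 to 3. Leaving out single libraries gave -0.12 (without major 3) to 0.17 (without major 1).

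ORco, on which all odorant receptor complexes depend, was undetected in all 5 minors and in majors 1, 2, 4 and 5. Major 3 had it at 2.205. That library detected 13 of the 406 other odorant receptors, as few as major 1 and fewer than the 25 to 79 of majors 2, 4 and 5 or the 43 to 65 of minors. The caste difference of 0.44 (SE 0.39; limma, adjusted p = 0.486) was 0.01 without major 3, so it was the value of a single library.

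IR76b and IR68a were at the edge of detection on day 1. IR76b was detected in minor 4 at 0.00635 and in major 5 at 0.00127, and IR68a in major 5 at 0.0168. Major 5 and minor 4 were also the major and the minor with the most identifiers detected. IR68a had a caste difference of 0.05 (SE 0.02; limma, adjusted p = 0.154), but 4 of 5 majors did not detect it and carried tie values. With undetected genes at 0 its difference was 0.00336 (limma, adjusted p = 0.842). Over the alternatives run its adjusted p ranged from 0.0377 to 0.844, and the lowest, without major 4, was the only call of a co-receptor in any fit. That fit called 2151 of 18130 identifiers (11.9%), and 10.3% as higher in majors, against 3 with all libraries.

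**Figure D2:**
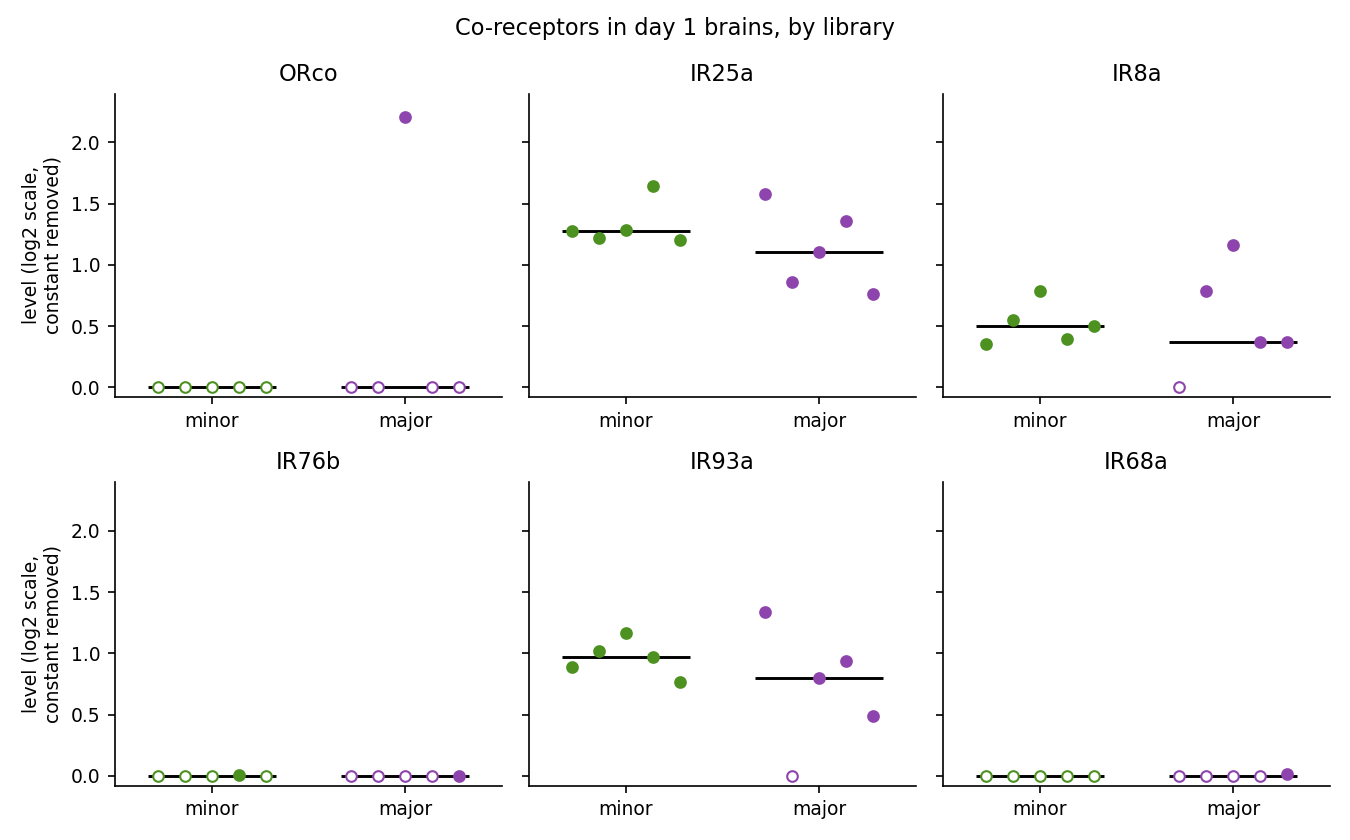
Level (log2 scale, library constant removed) of each co-receptor in the 5 minor and 5 major brains of day 1; filled points were detected, open points at 0 were not, and bars are medians. IR25a lies above 0.7 in all 10 brains, while ORco has 1 detected point, major 3 at 2.205.

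Between castes limma called 0 of 6 co-receptors, where it called 2 of the 3694 genes whose mean was 1 or more (0.0541%) and 3 of all 18130 identifiers (0.0165%). IR25a was the only co-receptor over that mean, and the other 5 were read from the fit of all identifiers. At an unadjusted p of 0.05, 1 co-receptor was higher in majors, IR68a as described, beside 13.5% of identifiers, and none was lower, beside 4.93%. Those shares are of deposited values, which include the tie values of undetected genes. With constants removed and undetected genes at 0 the balance turned. Of 13841 identifiers, 321 were then higher in majors and 1269 lower at the same unadjusted p. In detection the castes were near each other: IR25a 5 and 5 brains, IR8a and IR93a 5 minors and 4 majors, IR76b 1 and 1, ORco and IR68a 0 minors and 1 major. Only IR25a, IR8a and IR93a were in enough minors to lose 0.5 or more of their share of brains in majors, and none did. Such a drop was shown by 15.4% of the 13841 identifiers detected on day 1, a share against which so few genes cannot be judged.

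In scouts IR25a was found in 2 of 5 brains given DMSO, 9 of 10 given TSA and 6 of 6 given TSA with C646. The level in DMSO libraries 17 to 21 was 0.29, 0, 0, 0 and 0.63. In TSA brains it ran from 0 to 0.50, with a median of 0.29. In DMSO libraries 19 and 20 undetected genes carried deposited values up to 0.29 and 0.31. A level near that TSA median could have gone undetected in those 2 brains. In TSA+C646 libraries 11 to 16 it was 0.57, 0.91, 0.51, 0.56, 2.08 and 0.10. The arms overlapped, the lowest TSA+C646 brain lying below most TSA brains. The value of 2.08 came from library 15, which detected the fewest identifiers and no other co-receptor. In that library undetected genes carried deposited values up to 1.30 and every detected gene carried more, IR25a standing at 1.75. Levels of IR25a like those of the other TSA+C646 brains could thus have gone undetected in library 15. Whether its high level there goes with the few identifiers detected was not tested.

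The deposited values of IR25a averaged 0.19 over 5 DMSO, 0.42 over 10 TSA and 0.89 over 6 TSA+C646 brains. TSA minus DMSO was 0.23 (SE 0.22; limma, adjusted p = 0.749), and 0.15 without TSA library 10. TSA+C646 minus DMSO was 0.70 (SE 0.24, 95% interval 0.21 to 1.19), with an unadjusted p of 0.00743 that did not pass over 18130 identifiers (limma, adjusted p = 0.803). Without library 15 it was 0.53, and without libraries 15 and 16 it was 0.45. TSA+C646 minus TSA was 0.47 (SE 0.20; limma, adjusted p = 0.9999), 0.30 without library 15 and 0.22 without libraries 15 and 16. Within colonies that difference was 0.29 in SB1 and 0.78 in SB4, the colony of library 15.

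IR68a, the moist-air receptor of Drosophila, was undetected in all 5 DMSO brains, found in 3 of the 10 given TSA and found in 4 of the 6 given both inhibitors. The TSA brains with it were libraries 2, 8 and 10, at 0.22, 0.11 and 0.02, which had detected 10185, 10074 and 12328 identifiers. The TSA+C646 brains with it were libraries 11, 12, 14 and 16, at 0.93, 0.61, 0.85 and 0.23, which had detected 8659, 8826, 8543 and 12032. Those 4 came from colonies SB1, SB6 and SB4 and from both C646 doses, while libraries 13 and 15 did not detect it. Libraries 11, 12 and 14 lay above all 10 TSA brains, and library 16 was close to TSA library 2. In TSA library 6 undetected genes carried deposited values up to 0.35. Library 16 thus cannot be ranked against every TSA brain that missed the gene. In DMSO libraries 17 to 21 undetected genes carried deposited values up to 0.19, 0.18, 0.29, 0.31 and 0.28. Levels like those of TSA libraries 8 and 10 could thus have gone undetected in all 5 DMSO brains. Levels like those of TSA library 2 and TSA+C646 library 16 could have gone undetected in DMSO libraries 19 to 21. TSA+C646 minus DMSO was 0.59 (SE 0.20, 95% interval 0.18 to 1.00), with an unadjusted p of 0.00721 (limma, adjusted p = 0.803). TSA+C646 minus TSA was 0.40 (SE 0.17; limma, adjusted p = 0.9999). Both differences kept their sign in every alternative run. Against DMSO this says little, since none of those brains detected the gene and the sign could hardly turn. No alternative called either difference.

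IR76b, which serves amine sensing and taste in Drosophila, was found in 7 of 10 TSA brains, 2 of 5 DMSO brains and 2 of 6 TSA+C646 brains. Its level in TSA brains ran from 0 to 1.32, with a median of 0.43, and library 6 was the highest. The DMSO brains with it were libraries 17 and 20, at 0.33 and 0.39, and the TSA+C646 brains with it were libraries 14 and 16, at 0.49 and 0.18. The arms overlapped at 0 and above. TSA minus DMSO was 0.43 (SE 0.21, 95% interval -0.01 to 0.88; limma, adjusted p = 0.749) and 0.59 within colony SB2. Both values include TSA library 10, an SB2 brain that carried a deposited 0.84 without detecting the gene. With constants removed and undetected genes at 0 the difference over all colonies was 0.28. TSA+C646 minus TSA was -0.31 (SE 0.20; limma, adjusted p = 0.9999), and -0.48 without library 16.

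**Figure D3:**
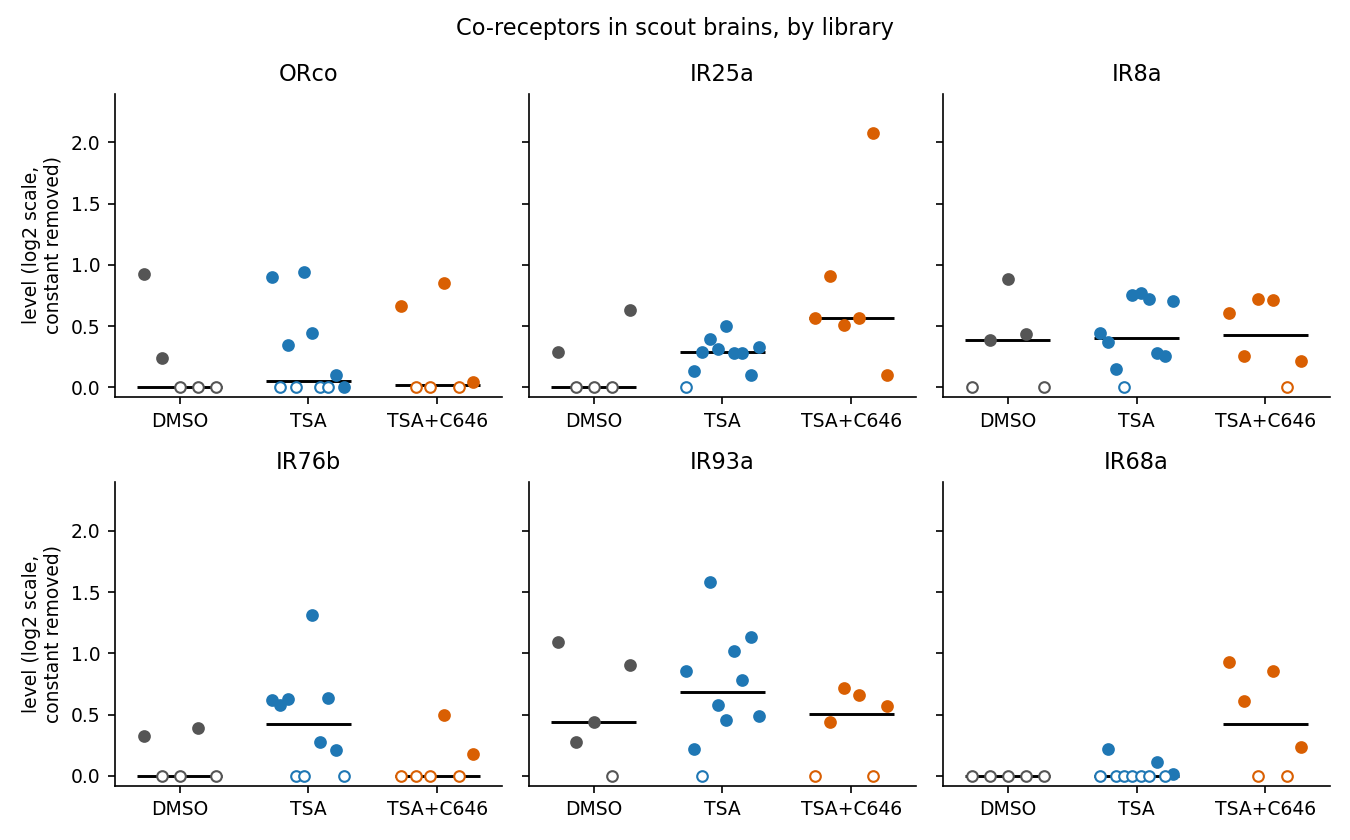
Level (log2 scale, library constant removed) of each co-receptor in 5 DMSO, 10 TSA and 6 TSA+C646 scout brains; filled points were detected, open points at 0 were not, and bars are medians. IR25a was detected in 6 of 6 TSA+C646 brains, with library 15 at 2.08, and IR68a was undetected in all 5 DMSO brains.

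ORco was found in 2 of 5 brains given DMSO, 6 of 10 given TSA and 3 of 6 given both inhibitors. In DMSO libraries 17 and 18 it was at 0.92 and 0.24. In TSA libraries 1, 3, 5, 6, 9 and 10 it was at 0.91, 0.34, 0.94, 0.45, 0.10 and 0.01. In TSA+C646 libraries 11, 14 and 16 it was at 0.67, 0.85 and 0.04. Each arm held brains near 0.9 beside brains with none. The differences were 0.19 (SE 0.23) for TSA minus DMSO, 0.17 (SE 0.25) for TSA+C646 minus DMSO and -0.01 (SE 0.21) for TSA+C646 minus TSA, and none passed (limma, adjusted p = 0.783, 0.838 and 0.9999). Without DMSO library 17 the first was 0.36 and the second 0.35, and the second was 0.07 without TSA+C646 library 16 and 0.09 without library 14. Of the 406 other odorant receptors, the partners of ORco, 31 to 58 were detected in a DMSO brain, 38 to 153 in a TSA brain and 13 to 149 in a TSA+C646 brain.

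IR8a was found in 3 of 5 brains given DMSO, 9 of 10 given TSA and 5 of 6 given both, at medians of 0.39, 0.41 and 0.43. Its highest levels were 0.88, 0.77 and 0.72 in the same order, so the arms overlapped nearly over their whole range. TSA minus DMSO was 0.26 (SE 0.23; limma, adjusted p = 0.749), and 0.15 without TSA library 10. TSA+C646 minus DMSO was 0.24 (SE 0.26; limma, adjusted p = 0.803), from 0.12 without TSA+C646 library 16 to 0.36 without DMSO library 19.

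IR93a was found in 4 of 5 brains given DMSO, 9 of 10 given TSA and 4 of 6 given both, at medians of 0.44, 0.68 and 0.50. The highest level was 1.58, in TSA library 4, and the TSA+C646 brains reached 0.72. TSA minus DMSO was 0.28 (SE 0.28; limma, adjusted p = 0.749), and 0.06 within SB2, the only colony those arms shared. TSA+C646 minus DMSO was 0.19 (SE 0.31; limma, adjusted p = 0.861), but library 15 carried a deposited tie value of 1.17 without detecting the gene. With constants removed and undetected genes at 0 the difference was -0.14. On deposited values it ran from 0.05 without library 16 to 0.32 without DMSO library 17.

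**Figure D4:**
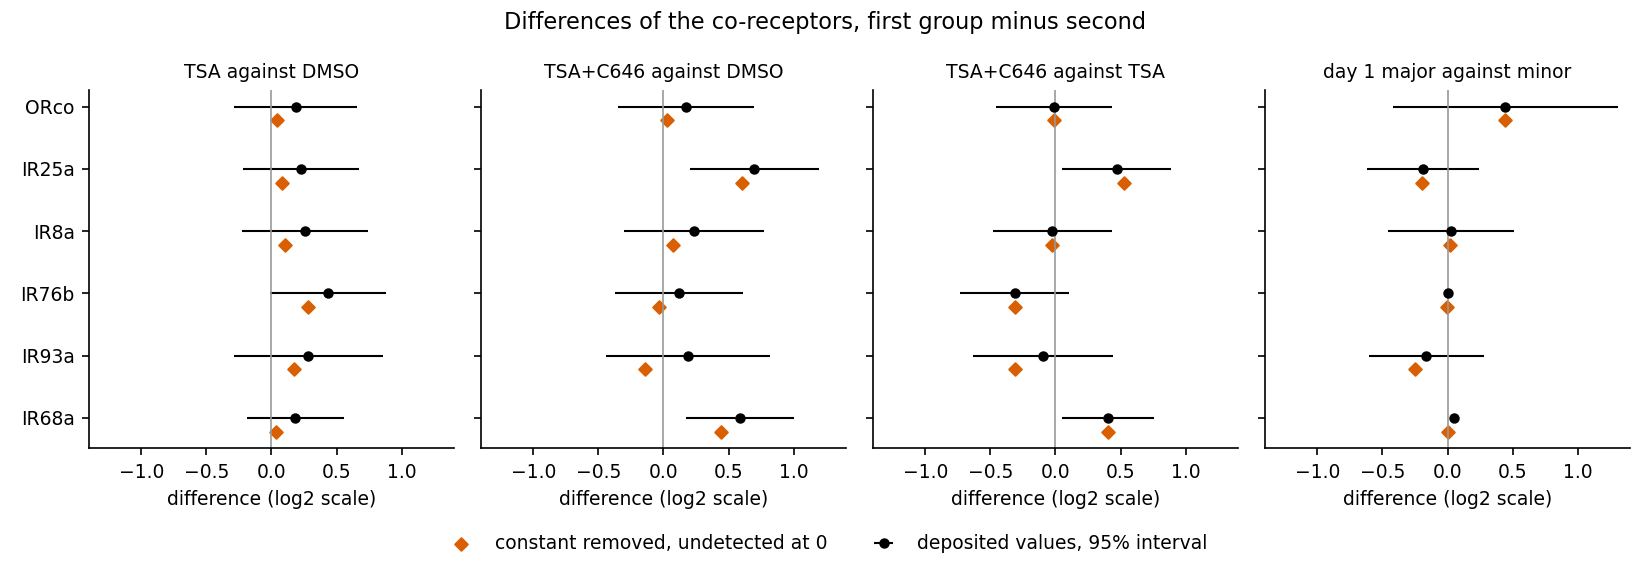
Difference of each co-receptor in the 4 comparisons, first group minus second, on the log2 scale: black points with 95% intervals are the deposited values, orange diamonds the values with constants removed and undetected genes at 0. In TSA+C646 against DMSO the intervals of IR25a (0.21 to 1.19) and IR68a (0.18 to 1.00) lie above 0, and after adjustment over all identifiers neither passed.

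In the scouts limma called 0 of 6 co-receptors in each of the 3 comparisons, where it called 0.0% of 4899 genes with a mean of at least 1 and 0.0% of 18130 identifiers. No co-receptor reached that mean in scouts, so all 6 were read from the fit of all identifiers. At an unadjusted p of 0.05, 0 of 6 co-receptors differed between TSA and DMSO, beside 2.42% of identifiers. For TSA+C646 against DMSO 2 of 6 were higher, IR25a and IR68a, beside 1.99% of identifiers, and for TSA+C646 against TSA the same pair was higher, beside 1.1%. These last comparisons share their TSA+C646 libraries, and the first pair shares the DMSO libraries. In detection, IR25a was the only co-receptor found in a share of TSA brains larger by 0.5 or more than in DMSO brains, as were 4.33% of the 15121 identifiers detected in either arm. For TSA+C646 against DMSO this held for IR25a and IR68a, and for 2.16% of 13866 identifiers.

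All 6 co-receptors had positive differences for TSA minus DMSO, with a median of 0.24, but most of that was shared by the table. The median over all 18130 identifiers was 0.15, and 14351 of them were above 0. With the constants removed and undetected genes at 0, the median over the 15419 identifiers detected in any scout was 0.01, and the co-receptors ran from 0.03 for IR68a to 0.28 for IR76b. For TSA+C646 minus DMSO the co-receptors had a median of 0.21 and all identifiers one of 0.15. On the values with constants removed these were 0.60 for IR25a and 0.44 for IR68a, and from -0.14 to 0.08 for the other 4, beside a median of 0 over the detected identifiers.

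The other receptors of the tables passed no test either. Among 406 other odorant receptors, 63 gustatory receptors and 26 other ionotropic receptors, limma called 0 in each of the 4 comparisons. The median difference for TSA minus DMSO was 0.15 for odorant receptors, 0.15 for gustatory receptors and 0.10 for the other ionotropic receptors, beside 0.15 over all identifiers. For major minus minor the medians were 0.03, 0.01 and 0.16, beside 0.01. All these medians are of deposited values, which include the tie values of undetected genes. Detection was lower in majors for each list. In the same order, 7.98%, 6.03% and 13.1% of the values in majors were detected, beside 44.4% over all identifiers. In minors the shares were 12.96%, 9.21% and 16.2%, beside 59.9%. Only 8 of these 495 receptors had a mean of at least 1 in scouts, and none had on day 1.

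The number of co-receptors a brain showed is set beside the number of identifiers it showed, as a description with no test. Library 15, with 2791 identifiers, showed 1 co-receptor, and TSA+C646 library 16, with 12032, showed 6. Majors 1 and 2, with 5459 and 6298 identifiers, showed 2 each, and major 5, with 11768, showed 5. Other brains did not follow this order. Major 3 had 4 co-receptors among 6528 identifiers, major 4 had 3 among 10216, and 4 minors had 3 each among 10462 to 11107. TSA library 6 had 5 co-receptors among 7511 identifiers, and TSA+C646 library 14 had all 6 among 8543. The 5 DMSO brains showed 2 to 4 co-receptors among 7825 to 8931 identifiers, and the TSA brains 2 to 5 among 7511 to 12328. Its part in the differences between arms was not tested.

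**Figure D5:**
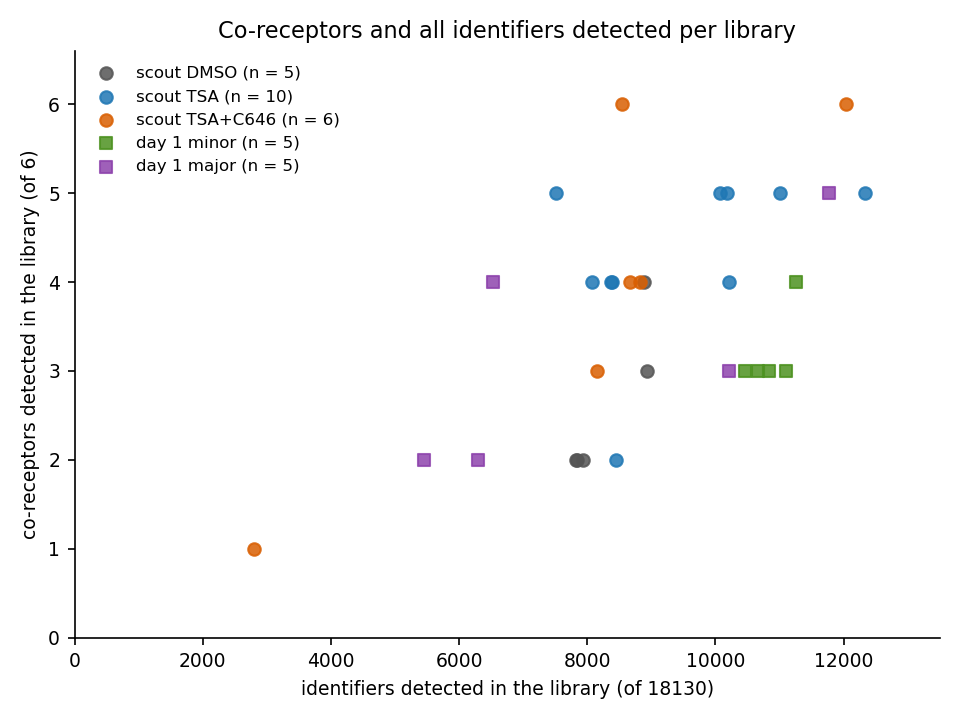
Number of co-receptors detected (of 6, vertical) against the number of identifiers detected (of 18130, horizontal) in each of the 21 scout (circles) and 10 day 1 (squares) libraries. TSA+C646 library 15 is the lowest point, with 1 co-receptor among 2791 identifiers, and minors lie at 3 or 4 co-receptors.

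Partners in Drosophila were not always found in the same brain. IR25a and IR93a were both found in 14 of 21 scouts, IR25a without IR93a in 3, IR93a without IR25a in 3 and neither in 1. IR25a and IR8a were both found in 13 scouts, and every scout had at least 1 of them. All 7 scouts with IR68a also had IR25a and IR8a, and 6 of the 7 had IR93a. Of the 11 scouts with ORco, 10 had IR8a, 9 had IR25a and 7 had IR76b. IR25a, IR8a and IR93a were each found in 17 of 21 scouts, so high joint counts with them do not show that genes go together. These counts are descriptions with no test.

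Identifiers whose levels across libraries were most like a co-receptor's carry numbers and no names. Across 21 scouts the closest to ORco was Cflo_13254 (Pearson r 0.77, 0.70 without the 2 libraries farthest from the median of ORco) and the closest to IR8a was Cflo_07864 (0.76 and 0.73). The closest to IR93a was Cflo_16836 (0.71 and 0.67), and the closest to IR76b was Cflo_01905 (0.66 and 0.55). For IR25a the closest was Cflo_09998, at 0.81 in all scouts and 0.31 without libraries 12 and 15, so that likeness rested on those brains. Across the 10 day 1 brains the closest were Cflo_02888 for IR25a (0.78 and 0.62), Cflo_08399 for IR8a (0.97 and 0.89) and Cflo_06019 for IR93a (0.94 and 0.88). Each was the highest of 3693 to 4899 identifiers searched, so these are descriptions.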

How the data were processed

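The 6 co-receptors, the receptor lists and the tests were chosen with earlier results of these data known. The series has 64 samples. The 21 scout and 10 day 1 RNA libraries are used here, the 6 subsample libraries of a further minor brain only as below, and 27 chromatin samples are not analysed here. Per the submitters' processing notes, the tools were Cufflinks 2.2.1, Bowtie2 and bcl2fastq 2.0. No genome build or annotation is named in the sources used here. A spike-in mix was added and libraries kept strand, per the labels' protocols.

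The values were deposited as log2 values (base inferred), so the tests ran on them directly, where the plan allowed for log2(value + 1). Each library follows 1 shared distribution plus a constant, with values below 0 set to 0, to within 9e-11 in the day 1 table. The shape is that of quantile normalization and a shift, neither recorded in the headers or labels.

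R 4.3.3 and limma 3.58.1 gave the tests, with a variance trend, and p-values were adjusted by Benjamini-Hochberg over every gene in the fit, at 0.05. Genes with a mean of at least 1 were tested, and members under it were read from a fit with no filter. The 3 scout arms shared a fit, and castes had their own. Named genes were all 6 members and the identifiers most like each. Python 3.11.15, numpy 2.4.6, pandas 2.3.3 and matplotlib 3.10.9 were used. None of the identifiers matched the reference table of 14020 genes. Recovery of ties and the tests were checked on simulated data, where a library with a negative constant lost low identifiers, so detection is then a lower bound.

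The 6 subsample libraries hold none of the named receptors. Of 4234 identifiers at levels of 0.3 to 1.7 in the 75% subsample, 4% subsamples missed 9.59% ± 1.56 (SD, n = 4), with a median SD of 0.22 between them.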

Additional observations from a re-analysis of the deposited data

Results flagged for a closer look

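In each group of 5 to 10 brains the highest and the lowest level of each co-receptor was compared with its neighbour by Dixon's ratio, at its 95% critical value. Of 27 such groups with any spread, 9 held a value set apart, all of them the highest, where chance gives about 1 in 20 groups for normally spread values; levels with many zeros are not so spread.

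The value of ORco in major 3 was 2.205, with the other 4 majors undetected. IR25a in minor 4 was 1.65, with the other minors at 1.20 to 1.29. ORco in DMSO library 17 was 0.92, with library 18 next at 0.24. IR76b stood apart in TSA library 6 at 1.32 and in TSA+C646 library 14 at 0.49. IR68a stood apart in TSA library 2 at 0.22. The remaining values were single detections close to 0: IR76b at 0.00127 in major 5 and at 0.00635 in minor 4, and IR68a at 0.0168 in major 5. IR25a at 2.08 in library 15 was not set apart by this ratio.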

How the results depend on the processing

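Over 534 alternative values of the co-receptors' differences, 493 kept direction and call, 40 changed sign and 1 became a call: IR68a between castes without major 4 (difference 0.06; limma, adjusted p = 0.0377), in a fit that called 2151 of 18130 identifiers (11.9%), so co-receptors called on day 1 ran from 0 to 1 when single libraries were left out. For TSA+C646 minus DMSO, IR76b was -0.0294 after quantile normalization, -0.0323 with constants removed and undetected genes at 0, -0.0165 with array weights, -0.0171 without libraries 15 and 16, and -0.0209 without them and with constants removed. IR93a was -0.144, -0.0864, -0.0864 and -0.0863 in the last 4 of these. For TSA+C646 minus TSA, ORco was 0.000111 with a pseudocount of 5, 0.0355 with array weights, 0.377 within SB1, and 0.104 without libraries 15 and 16 and with constants removed. IR8a was 0.0947, 0.363 and 0.130 in the last 3 of these and 0.0827 at 50 µM C646, and IR93a was 0.425 within SB4. For major minus minor, IR8a was -0.196 with a pseudocount of 0.1, -0.126 without majors 1 to 3, and -0.146 without them and with constants removed. IR76b was -0.000522 after quantile normalization, -0.00102 with constants removed, and -0.000635 with majors 1 to 3 also left out. The cause was not tested.

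Leaving out single libraries gave -0.0430 to 0.176 for IR76b (TSA+C646 minus DMSO), and -0.119 to 0.0708 for ORco, -0.136 to 0.0897 for IR8a and -0.237 to 0.0226 for IR93a (TSA+C646 minus TSA). It gave -0.120 to 0.166 for IR8a between castes, and 2 to 37 genes called between castes with a mean of at least 1, the most without major 5. With no filter, the fit from which 5 of 6 co-receptors were read, 3 identifiers were called with all libraries, and 0 to 2151 without single ones, the most without major 4, then 30 without major 5. Array weights called 1 gene for TSA minus DMSO. Between castes 1 gene was called with a mean of at least 2 and 0 without majors 1 to 3, with 346 genes at an unadjusted p of 0.05, but 22 of 18130 were called with no filter. Replicate numbers did not pair the castes: same-numbered libraries correlated at -0.117 to 0.166, with 1 of 5 pairs over 0.1. With the replicate number as a block limma called 0 genes and 0 co-receptors between castes, with 522 genes at an unadjusted p of 0.05. The combinations that leave out libraries and remove constants were chosen after seeing the data. No co-receptor had a mean of at least 2, so that filter gave no value for them. Depth is unknown, and levels near 0 cannot be told from undetected ones.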
